A study of Rattus norvegicus with 8 samples.

Results

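The expression of 8 genes of steroid hormone signalling was examined in the rat hypothalamus: the receptor genes Nr3c1, Nr3c2, Esr1 and Pgr, the coactivator genes Ncoa1 and Ncoa2, the corepressor gene Ncor1 and the enzyme gene Hsd11b1. They were taken by their symbol, and all 8 were present, with 92 of the 98356 alternative polyadenylation (APA) sites and 8 of the 18003 gene symbols measured. An APA site is a place where transcripts of a gene end, and the method used, Whole Transcriptome Termini Site Sequencing (WTTS-Seq), counts the 3′ ends of polyadenylated RNA at each. The tissue was micro-dissected hypothalamus of adult Long-Evans rats, which the study's methods give as male. In the cannabis group (n = 4, labelled vaporized CPM exposure) rats breathed vapor from whole cannabis plant matter for 10 min, and in the air control group (n = 4) rats sat in the same apparatus with an unfilled vaporizer. Food was taken away and tissue was collected 1 hr later in both groups. The comparison asked whether site use or RNA level of these genes differed between cannabis-exposed rats and air-treated controls. None of the 8 gene totals passed the test between the groups, and single libraries of a group differed many-fold at some sites, such as Ncoa2 site 2 and Nr3c1 site 6.

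Steroid hormones cross the cell membrane and bind receptors that act as transcription factors. Nr3c1 encodes the glucocorticoid receptor and Nr3c2 the mineralocorticoid receptor, which both bind corticosterone and through which the hypothalamus senses the stress hormone it controls. Esr1 encodes estrogen receptor alpha and Pgr the progesterone receptor, which are known for their part in reproductive behavior and feeding in the ventromedial and arcuate nuclei. Ligand-bound receptors recruit coactivators of the p160 family (Ncoa1, also called SRC-1, and Ncoa2, also called TIF2), which bring histone acetyltransferases to promoters. Ncor1 is a scaffold that brings histone deacetylase Hdac3 to receptors that repress. Hsd11b1 regenerates active glucocorticoid inside the cell from its inert 11-keto form.

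The 8 libraries held from 1159811 reads on sites (air control replicate 4) to 3706778 (cannabis replicate 2), and 1 read was worth from 0.664 to 1.99 normalized counts. Air control replicate 4 and cannabis replicate 1 had the largest shares of sites without a read (26.13% and 16.95%, against 3.317% to 10.33% in the others). Their deviations from their group means went together (r = 0.469 over 22164 sites with a mean of at least 10 normalized counts, a description), so values are also given without both. The labelled tissue was checked against 12 measured markers of hypothalamic nuclei, whose summed level was 3292.0 to 5636.2 normalized counts in air controls and 7472.5 to 9510.2 in cannabis-exposed rats. Of the 12, 2 (Avp and Oxt) had limma P under 0.01, both higher in cannabis, and the groups of 1 (Avp) did not overlap. These 2 made up a large part of the sums. Avp was at 1054.1 to 3082.0 in air controls and 3278.2 to 6313.5 in cannabis-exposed rats, and Oxt at 371.1 to 888.9 and 870.5 to 1674.0. Markers of the ventromedial and arcuate nuclei (5 of 5 measured) summed to 242.3 to 350.8 and to 198.7 to 404.0. Listed midbrain dopamine neuron markers (4 of 4 measured) summed to 543.5 to 743.5 in air controls and 90.7 to 236.6 in cannabis-exposed rats. Of these, Pitx3 was at 0 in some libraries of both groups. The groups did not overlap for the other 3, En1, Th and the dopamine transporter gene Slc6a3. The study reports sites of these genes as lower after cannabis. By quantitative PCR in another cohort it reports less RNA of the dopamine transporter. It also discusses dopamine neurons of the arcuate nucleus. Which cells gave these reads was not tested. Summed astrocyte, oligodendrocyte and microglia markers overlapped between the groups. The part of these marker differences in the values below was not tested. In bulk tissue fewer cells of a type and less RNA per cell cannot be told apart.

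The 92 sites held 9326 reads over the 8 libraries, from 16 to 1160 reads a site with a median of 32. Only 20 sites had a mean of at least 10 normalized counts, and 72 lay under it, so most single sites had low precision. Ncor1 had 22 sites and Nr3c1 20, and 1.23% and 1.51% of all symbols had at least as many. Nr3c2 and Esr1 had 13 sites each, Ncoa1 10, Ncoa2 8, and Pgr and Hsd11b1 3 each. Sites are numbered within each gene by their reads over all libraries, so that site 1 has the most. Their position in the gene was not analysed here.

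In gene totals, which sum all sites with a symbol, 0 of the 8 genes had limma P under 0.01 and 0 had P under 0.05. Over all 18003 symbols 0.278% had P under 0.01 and 2.41% had P under 0.05. edgeR and DESeq2 on the recovered reads also called 0 of the 8 at either threshold. In all 8 genes the air control and cannabis groups overlapped, whereas 1.98% of all symbols had groups that did not. Fold changes are given as log2 of cannabis over air control on normalized count + 1, which understates low genes. The median over the 8 genes was -0.002, against 0.05 over all genes. A total is a count of transcript 3′ ends and so is not scaled by gene length.

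**Figure D1:**
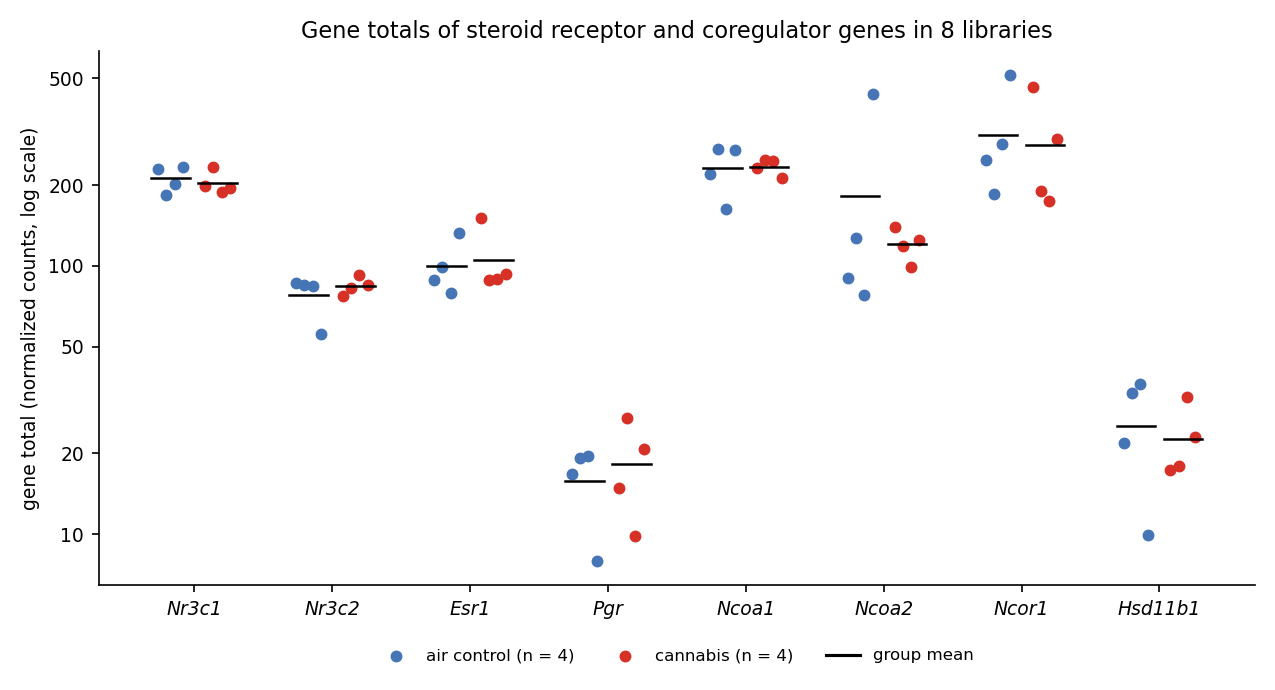
Gene totals in normalized counts (log scale) of the 8 genes in each library, air control in blue (n = 4) and cannabis in red (n = 4), with a black line at each group mean. The groups overlap for every gene, and the single air control point of Ncoa2 at 436.9 lies above all of its other libraries.

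Nr3c1, the glucocorticoid receptor, was read at 230.3, 184.4, 201.4 and 234.3 normalized counts in air control replicates 1 to 4 and at 198.7, 233.8, 187.9 and 194.3 in cannabis replicates 1, 2, 3 and 5. The 2 groups lay within one another. Their means were 212.6 ± 23.9 and 203.7 ± 20.6 (SD, n = 4 each), a log2 fold change of -0.06 ± 0.19 (SE, 95% interval -0.47 to 0.35, limma P = 0.761, exact permutation p = 0.657). That interval covers folds from 0.72 to 1.28. The total varied over the 8 libraries with a coefficient of variation of 10.2%, against 7.06% from counting alone, the smallest of the 8 genes.

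Nr3c2, the mineralocorticoid receptor, was lower overall. Its totals were 86.3, 85, 83.9 and 55.6 in air controls and 77.0, 82.4, 92.5 and 84.5 in cannabis-exposed rats. Only air control replicate 4 stood below the rest, from 28 reads. The means of 77.7 ± 14.8 and 84.1 ± 6.43 (SD, n = 4 each) gave a log2 fold change of 0.13 ± 0.23 (SE, 95% interval -0.37 to 0.63, limma P = 0.578, exact permutation p = 0.686).

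Esr1, estrogen receptor alpha, had totals of 88.5, 99.4, 79.2 and 133.1 in air controls and 150.3, 88.3, 89.5 and 92.9 in cannabis-exposed rats. The 2 highest libraries were air control replicate 4 and cannabis replicate 1, 1 of each group, and the other 6 lay between 79.2 and 99.4. The log2 fold change was 0.06 ± 0.25 (SE, 95% interval -0.49 to 0.61, limma P = 0.809, exact permutation p = 0.657), from means of 100 ± 23.5 and 105.3 ± 30.1 (SD, n = 4 each). Pgr, the progesterone receptor and a known target of estrogen receptor alpha, had a low level in this tissue, with 16.8, 19.2, 19.5 and 7.94 normalized counts in air controls and 14.9, 27.2, 9.84 and 20.7 in cannabis-exposed rats, from 4 to 41 reads a library. Its interval was wide, at -0.71 to 1.06 (log2 fold change 0.17 ± 0.41, SE, limma P = 0.683, exact permutation p = 0.686), which is a range of folds from 0.61 to 2.08.

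Ncoa1, the SRC-1 coactivator, had totals of 220.0, 271.7, 162.5 and 270.1 in air controls and 232.2, 247.1, 245.0 and 212.0 in cannabis-exposed rats. The cannabis libraries lay inside the range of the air controls. With means of 231.1 ± 51.6 and 234.1 ± 16.1 (SD, n = 4 each), the log2 fold change was 0.05 ± 0.21 (SE, 95% interval -0.41 to 0.51, limma P = 0.834, exact permutation p = 0.857).

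Ncoa2, the TIF2 coactivator, was read at 89.9, 126.9, 77.9 and 436.9 in air controls and at 139.1, 118.9, 99.4 and 125.2 in cannabis-exposed rats. A single library, air control replicate 4, set the air control mean of 182.9 ± 170.6, against 120.6 ± 16.5 in cannabis (SD, n = 4 each). The log2 fold change was -0.23 ± 0.43 (SE, 95% interval -1.15 to 0.69, limma P = 0.599, exact permutation p = 0.914). Without that library it was 0.31, so the direction of Ncoa2 rested on 1 library, and without it and cannabis replicate 1 it was 0.24.

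Ncor1, the corepressor, had the highest mean of the 8, 295.0 normalized counts. Its totals were 247.8, 185.6, 285.3 and 514.4 in air controls and 465.7, 190.0, 174.2 and 297.2 in cannabis-exposed rats, with the same 2 libraries highest as for Esr1. The log2 fold change was -0.14 ± 0.35 (SE, 95% interval -0.88 to 0.61, limma P = 0.694, exact permutation p = 0.771), from means of 308.3 ± 143.4 and 281.8 ± 134.2 (SD, n = 4 each). The coefficient of variation of Ncor1 was 43.9%, against 6.25% from counting alone.

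Hsd11b1, the glucocorticoid-regenerating enzyme, had totals of 21.9, 33.5, 36.3 and 9.93 in air controls and 17.4, 17.9, 32.5 and 23.0 in cannabis-exposed rats, from 5 to 54 reads. The 2 groups overlapped throughout, with means of 25.4 ± 12 and 22.7 ± 6.99 (SD, n = 4 each). The log2 fold change was -0.05 ± 0.41 (SE, 95% interval -0.93 to 0.83, limma P = 0.904, exact permutation p = 0.914).

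**Figure D2:**
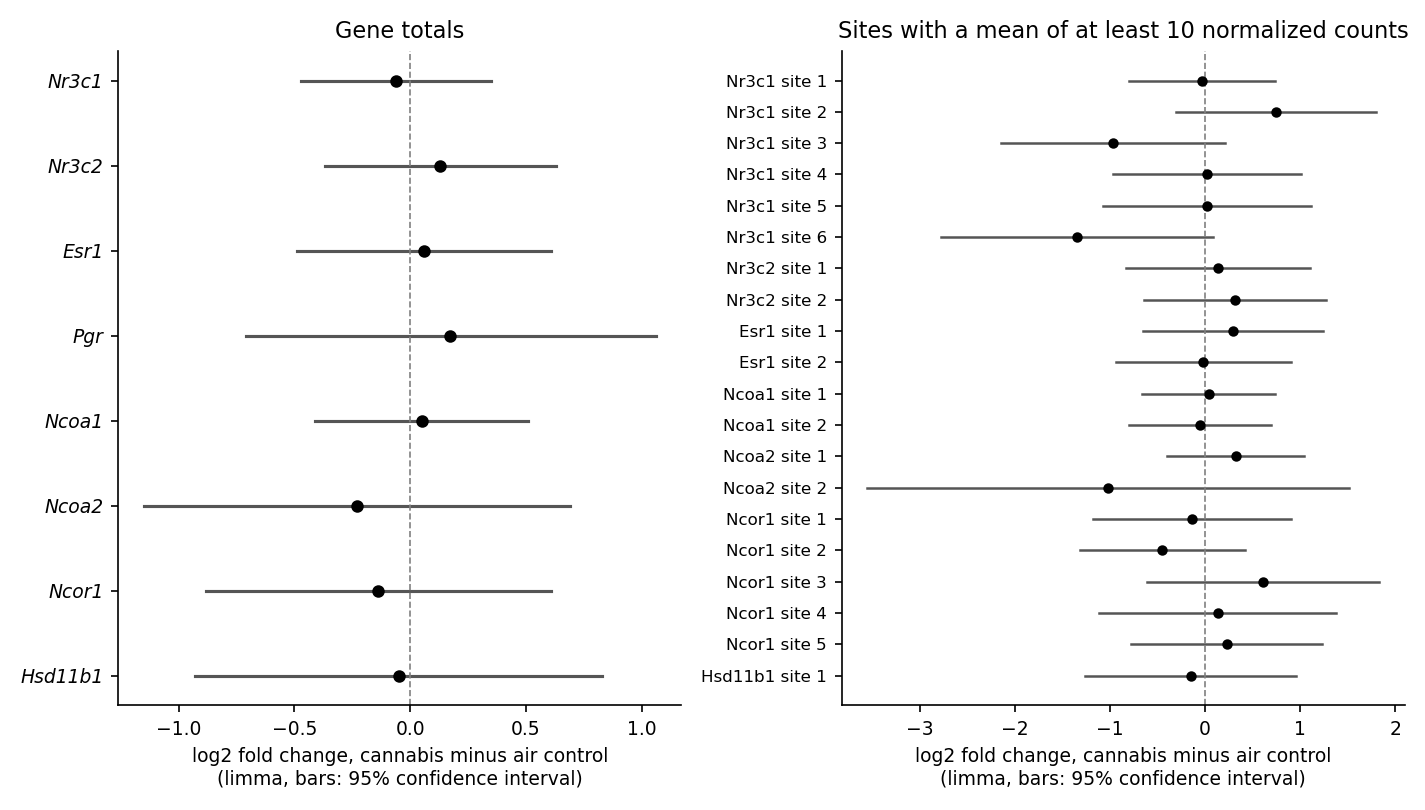
Log2 fold change of cannabis over air control (horizontal axes) for the 8 gene totals (left) and for their 20 sites with a mean of at least 10 normalized counts (right), with points for the limma estimate and bars for its 95% interval. Every interval spans 0, and among the totals the widest is that of Ncoa2 (-1.15 to 0.69) and the narrowest that of Nr3c1 (-0.47 to 0.35).

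By mean total the order was Ncor1, Ncoa1, Nr3c1, Ncoa2, Esr1, Nr3c2, Hsd11b1 and Pgr. Neighbours in that order mostly did not keep their order in every library. Ncor1 was above Ncoa1 in 5 of 8 libraries, with a mean log2 difference of 0.25 ± 0.65 (SD). Ncoa1 was above Nr3c1 in 6 of 8 (0.15 ± 0.26), Nr3c1 above Ncoa2 in 7 of 8 (0.67 ± 0.72), Ncoa2 above Esr1 in 6 of 8 (0.37 ± 0.58) and Esr1 above Nr3c2 in 6 of 8 (0.32 ± 0.50). The clear step was from Nr3c2 to Hsd11b1, which was lower in 8 of 8 libraries by 1.79 ± 0.42 on the log2 scale. Hsd11b1 was above Pgr in 7 of 8 (0.46 ± 0.64).

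Among the 92 single sites, 0 had limma P under 0.01 (0.381% of all sites did) and 3 had P under 0.05 (3.03% of all sites did), 2 of them higher in cannabis (1.27% of all) and 1 lower (1.76%). The smallest limma P was 0.0277 (exact permutation p = 0.0571). edgeR called 0 sites at 0.01 and 4 at 0.05, and DESeq2 called 0 and 2, none of them among the 3 of limma. Those of edgeR were Nr3c1 sites 17 and 18, Nr3c2 site 13 and Ncor1 site 18, and the last 2 were those of DESeq2. Over all 98356 sites edgeR called 517 at 0.01 and 2859 at 0.05, and DESeq2 327 and 1870. Of the 92, 44 had a fold change above 0 and 48 below, from -1.39 to 1.53 on the log2 scale. The groups did not overlap at 3 sites, and 2.0% of all sites had such groups. Of the 92 sites 0 had a Benjamini-Hochberg adjusted P in limma under 0.1 (0.00102% of all sites did), with every adjusted P at 1. Of the 8 totals 0 did (0.00555% of all symbols), with adjusted P of 0.999.

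The 3 sites with P under 0.05 were Nr3c1 site 10, Ncoa1 site 6 and Ncor1 site 15, all of them minor. The 3 had P values of 0.0658 to 0.101 with edgeR and 0.0747 to 0.139 with DESeq2, so their calls at 0.05 rest on limma on the log scale. Nr3c1 site 10 had 8.04, 7.18, 10.1 and 9.93 normalized counts in air controls and 2.48, 7.31, 1.97 and 2.30 in cannabis-exposed rats, so only cannabis replicate 2 reached the air control range. Its log2 fold change was -1.24 ± 0.53 (SE, limma P = 0.0277, exact permutation p = 0.0571), from 55 reads in all. As a share of Nr3c1 it was 4.16% ± 0.64 in air controls and 1.65% ± 0.986 after cannabis (SD, n = 4 each), where the groups did not overlap (limma P = 0.043, exact permutation p = 0.0286, the smallest this design can give).

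Ncoa1 site 6 had 0.731, 1.2, 3.36 and 0 normalized counts in air controls and 3.73, 5.31, 2.95 and 6.14 in cannabis-exposed rats, 29 reads in all (log2 fold change 1.42 ± 0.61, SE, limma P = 0.0302, exact permutation p = 0.0571). The groups met only where air control replicate 3 lay above cannabis replicate 3. Ncor1 site 15 had 0.731, 2.39, 2.69 and 0 in air controls and 3.73, 4.65, 4.92 and 3.84 in cannabis-exposed rats, with no overlap (log2 fold change 1.29 ± 0.60, SE, limma P = 0.044, exact permutation p = 0.0286), from 27 reads. The other 2 sites whose groups did not overlap were both lower in cannabis and missed the limma threshold. They were Ncoa2 site 3, at 5.37 to 9.58 in air controls and 3.32 to 4.97 in cannabis-exposed rats (limma P = 0.304, exact permutation p = 0.0286), and Ncor1 site 16, at 3.36 to 4.39 and 1.24 to 3.32 (limma P = 0.205, exact permutation p = 0.0286). Both were picked out after their values were seen.

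Site shares, the percent of a gene's normalized counts at each site, do not depend on the scaling of a library. The ratio tested below adds 1 normalized count to each part, so at low sites it does depend on it. In the limma fit on log2 of a site against the other sites of its gene (the count tools were not run on shares), 0 of 92 sites had P under 0.01 (0.466% of all 57287 sites did) and 3 had P under 0.05 (3.27% did), 1 of them higher in cannabis (1.57% of all) and 2 lower (1.71%). Beside Nr3c1 site 10, these were Nr3c2 site 13 and Ncor1 site 18. Nr3c2 site 13 held 4.96% ± 4.54 of its gene in air controls and 0.468% ± 0.55 after cannabis (SD, n = 4 each, limma P = 0.0408, exact permutation p = 0.143), from 16 reads. Ncor1 site 18 held 0.161% ± 0.323 and 1.58% ± 2.1 (limma P = 0.0469, exact permutation p = 0.257), and 18 of its 23 reads were in cannabis replicate 5. The shares of 2 sites did not overlap between the groups (2.02% of all sites), Nr3c1 site 10 and Nr3c2 site 5. The latter, chosen after its values were seen, held 6.78% to 7.20% of Nr3c2 in air controls and 7.26% to 16% in cannabis-exposed rats (limma P = 0.328, exact permutation p = 0.0286).

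**Figure D3:**
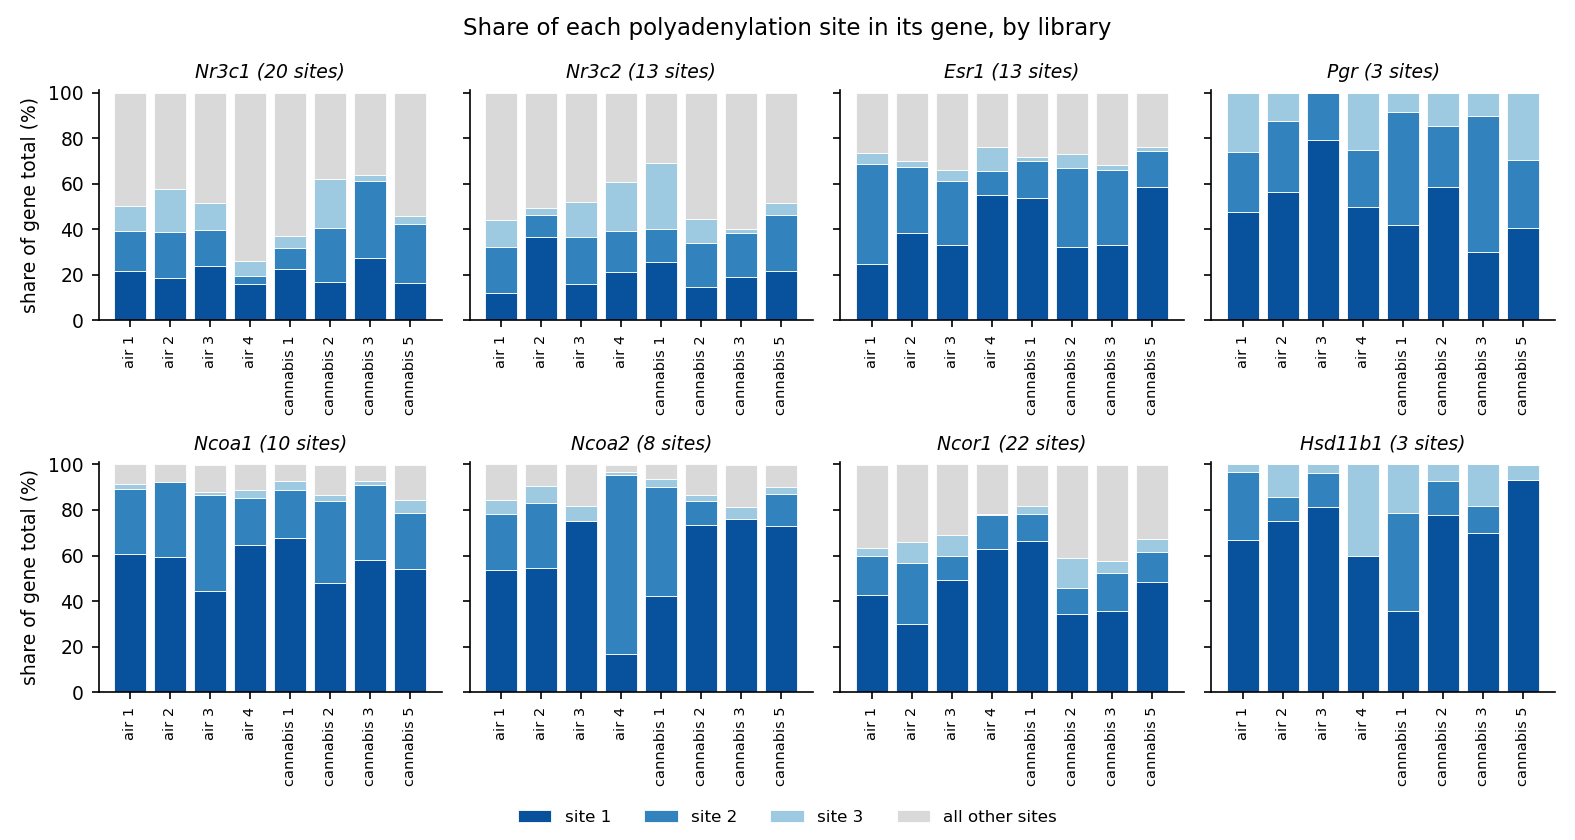
Percent of each gene's normalized counts at its site 1 (dark blue), site 2 (blue), site 3 (light blue) and all other sites (grey), 1 bar per library in each panel. The Ncoa2 panel shows site 2 at 78.6% in air control replicate 4 and at 0% in air control replicate 3 and cannabis replicate 3.

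Most of the counts of Ncoa1, Ncoa2, Pgr and Hsd11b1 came from 2 sites, on average 87.0%, 83.6%, 84.2% and 85.6% of the gene. In Esr1 and Ncor1 the 2 leading sites made up 67.5% and 61.6%. In both corticosteroid receptors the 2 leading sites held less, 39.2% on average in Nr3c1 as in Nr3c2.

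Nr3c1 site 1 was even across libraries, at 50.4, 34.7, 47.7 and 37.7 in air controls and 44.7, 39.2, 51.2 and 32.3 in cannabis-exposed rats (log2 fold change -0.03 ± 0.37, SE, 95% interval -0.80 to 0.74). Sites 2, 3 and 6, looked at after their values were seen, were not. Site 2 was at 40.2, 37.1, 32.2 and 7.94 in air controls and 18.6, 55.8, 64.0 and 49.9 in cannabis-exposed rats (limma P = 0.157, exact permutation p = 0.343). It was lowest in the 2 libraries that stand apart. At site 3 cannabis replicate 2 had 50.5 and the other cannabis libraries 4.92 to 9.93, below the 15.9 to 34.7 of the air controls (limma P = 0.101, exact permutation p = 0.2). Without cannabis replicate 2 the log2 fold changes were -1.65 at site 3 (limma P = 0.00336) and -1.58 at site 10 (limma P = 0.00996), each with an exact permutation p of 0.0286, the smallest that 4 against 3 libraries can give. At both sites only cannabis replicate 2 kept the groups from separating, so these P-values follow from leaving it out and are no support. Site 6 was at 57.6 in air control replicate 4 and at 0.984 to 17.9 in the other 7 libraries. Without site 6 the Nr3c1 totals were 191.0 ± 21.4 and 196.0 ± 13.4 (SD, n = 4 each, exact permutation p = 0.6).

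Nr3c2 site 1 was at 10.2, 31.1, 13.4 and 11.9 in air controls and 19.9, 12, 17.7 and 18.4 in cannabis-exposed rats (log2 fold change 0.14 ± 0.46, SE, limma P = 0.771, exact permutation p = 0.743). Air control replicate 2 alone was high, and the cannabis libraries lay within the range of the air controls.

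Esr1 site 1 was at 21.9, 38.3, 26.2 and 73.5 in air controls and 80.7, 28.6, 29.5 and 54.5 in cannabis-exposed rats (log2 fold change 0.29 ± 0.45, SE, limma P = 0.528, exact permutation p = 0.6). It was high in air control replicate 4 and cannabis replicates 1 and 5, where it made up 53.7% to 58.7% of Esr1, against 24.8% to 38.6% in the other 5 libraries. Esr1 site 2, looked at after its values were seen, was at 13.9, 24.8 and 14.6 in those 3 libraries and at 22.2 to 38.7 in the others (limma P = 0.968, exact permutation p = 1).

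Pgr site 1 was at 8.04, 10.8, 15.4 and 3.97 in air controls and 6.21, 15.9, 2.95 and 8.45 in cannabis-exposed rats (log2 fold change -0.23 ± 0.55, SE, limma P = 0.679, exact permutation p = 0.714). Its share of Pgr was 58.3% ± 14.4 and 42.7% ± 11.8 (SD, n = 4 each, exact permutation p = 0.171). With so few reads, 1 or 2 of them move a share in the shallow libraries by many percent.

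Ncoa1 site 1 was at 133.8, 161.6, 72.5 and 174.8 in air controls and 157.7, 118.2, 142.7 and 114.4 in cannabis-exposed rats (log2 fold change 0.04 ± 0.34, SE, limma P = 0.913, exact permutation p = 0.943). Its share of Ncoa1 was 57.4% ± 8.8 and 57.0% ± 8.44 (SD, n = 4 each), almost the same in both groups.

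Ncoa2 site 1 was at 48.2, 69.4, 58.4 and 73.5 in air controls and 58.4, 87.0, 75.8 and 91.4 in cannabis-exposed rats, with overlapping groups (log2 fold change 0.32 ± 0.35, SE, limma P = 0.368, exact permutation p = 0.171). Ncoa2 site 2 was instead at 21.9, 35.9, 0 and 343.6 in air controls and 67.1, 12.6, 0 and 17.7 in cannabis-exposed rats (log2 fold change -1.02 ± 1.22, SE, limma P = 0.412, exact permutation p = 0.686). It had no read in air control replicate 3 and cannabis replicate 3, where a count of 0 allows up to 2.01 and 2.95 normalized counts (3 reads), and was the main site in air control replicate 4, at 78.6% of the gene. Its standard deviation over the 8 libraries was 2.87 on the log2 scale. Of the 6106 sites with a mean of at least 50 normalized counts 0.311% varied as much, and the median was 0.45. Without site 2 the Ncoa2 totals lay between 68.0 and 107.5 in all 8 libraries, with means of 82.5 ± 11.9 and 96.3 ± 16.6 (SD, n = 4 each, exact permutation p = 0.229). Site 2 was chosen for this after its values were seen.

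Ncor1 site 1 was at 106.0, 55.1, 140.3 and 323.7 in air controls and 309.2, 65.1, 62.0 and 143.6 in cannabis-exposed rats (log2 fold change -0.14 ± 0.50, SE, limma P = 0.782, exact permutation p = 0.943). The standard deviation was 0.99 on the log2 scale, which 7.39% of the sites with a mean of at least 50 reached. Its share of Ncor1 was 46.1% in both groups (SD 13.8 and 14.9, n = 4 each). Without it the Ncor1 totals were 152.0 ± 26.5 and 136.8 ± 21.7 (SD, n = 4 each, exact permutation p = 0.457). The libraries that stand apart were the 2 highest at 4 of the 5 Ncor1 sites with a mean of at least 10, and at 7 of the 20 such sites of all 8 genes (11.5% of all sites with that mean).

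Hsd11b1 site 1 was at 14.6, 25.1, 29.5 and 5.96 in air controls and 6.21, 13.9, 22.6 and 21.5 in cannabis-exposed rats (log2 fold change -0.15 ± 0.54, SE, limma P = 0.783, exact permutation p = 0.714). It was lowest in the 2 libraries that stand apart, and its share of the gene went from 35.7% to 93.3%.

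**Figure D4:**
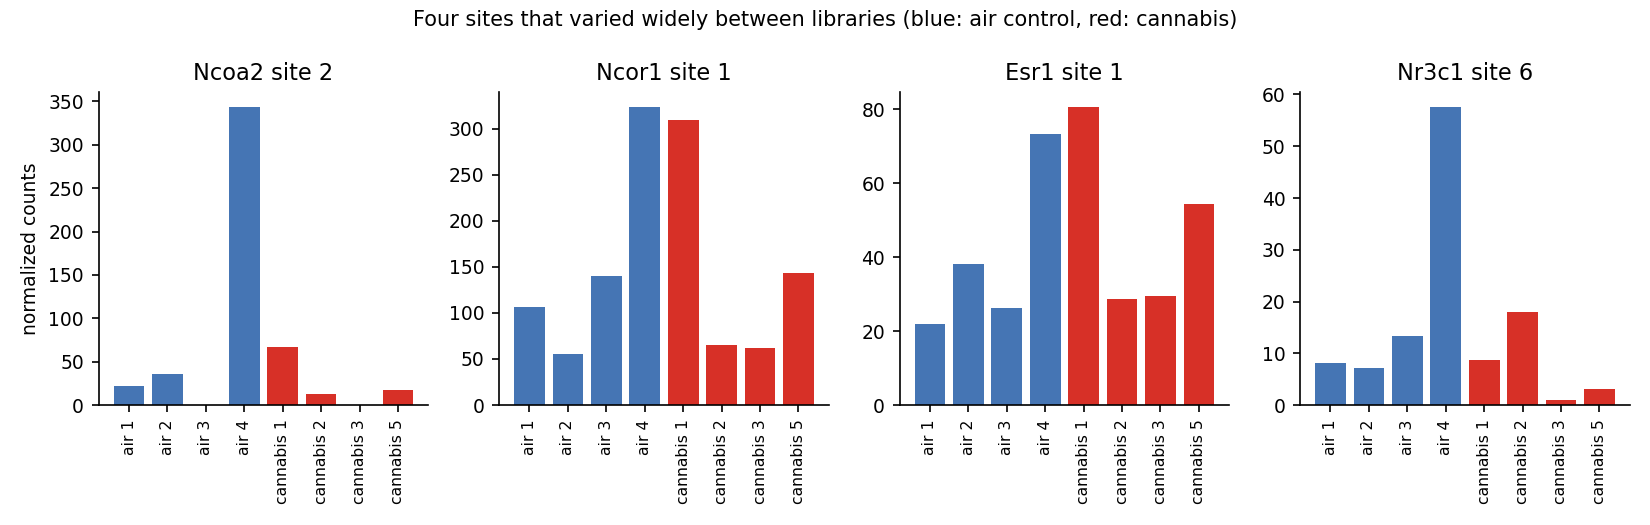
Normalized counts (vertical axes, from 0, 1 scale per panel) of Ncoa2 site 2, Ncor1 site 1, Esr1 site 1 and Nr3c1 site 6, 1 bar per library, air control in blue and cannabis in red. The 4 sites were chosen after their values were seen, as sites that varied widely between libraries, and air control replicate 4 is highest in 3 of the 4 panels and cannabis replicate 1 in that of Esr1.

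Around these 8 genes, 51 other genes of the pathway were measured, in lists of receptors, coactivators, corepressors, receptor chaperones and steroid enzymes. In their totals 0 had limma P under 0.01 and 3 had P under 0.05, 2 of them higher (1.31% of all genes were) and 1 lower (1.09% were). edgeR and DESeq2 also called 0 of the 51 at 0.01, and called 3 and 5 at 0.05. Over all 18003 symbols they called 454 and 386 at 0.05. Of the listed genes, Esr2, Ncoa4 and Prmt1 were called by both, and Stip1 and Pgrmc1 by DESeq2 and not by edgeR. Prmt1 was at 113.7 in air control replicate 2 and at 5.9 or less in the other libraries. The median log2 fold change of the 51 was 0.08, against 0.05 over all genes. The 8 other receptors had a median of -0.14 with 1 lower, the 14 coactivators 0.08 with 1 higher, and the 9 chaperones 0.08 with 1 higher. The 9 corepressors (0.14) and the 11 enzymes (0.18) had 0 at P under 0.05.

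Esr2, estrogen receptor beta, was the listed gene with the smallest limma P. Its totals were 21.9, 13.2, 20.1 and 49.6 in air controls and 11.2, 9.96, 7.87 and 16.9 in cannabis-exposed rats, with means of 26.2 ± 16.1 and 11.5 ± 3.86 (SD, n = 4 each). Only cannabis replicate 5 lay above the lowest air control. The log2 fold change was -1.01 ± 0.42 (SE, limma P = 0.0325, exact permutation p = 0.0571, Benjamini-Hochberg adjusted P = 0.999 in limma).

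Ncoa4, a coactivator better known as the ferritin receptor of autophagy, was steady in air controls at 160.1, 159.2, 147.7 and 158.9 and was at 151.5, 263.7, 227.3 and 304.2 in cannabis-exposed rats. Of the cannabis libraries, replicate 1 alone lay in the air control range. The log2 fold change was 0.55 ± 0.23 (SE, limma P = 0.0331, exact permutation p = 0.114). Without cannabis replicate 1 it was 0.75 (limma P = 0.0028, exact permutation p = 0.0286). Since that was the only cannabis library in the air control range, leaving it out set the groups apart. The P-values without it are therefore no support.

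Stip1, the Hsp70 and Hsp90 organizing cochaperone that loads steroid receptors, was at 127.2, 104.1, 176.6 and 75.5 in air controls and 161.4, 191.3, 138.7 and 265.8 in cannabis-exposed rats. The groups overlapped through air control replicate 3 (log2 fold change 0.67 ± 0.29, SE, limma P = 0.0353, exact permutation p = 0.114). Without that library the log2 fold change was 0.87 (limma P = 0.00963, exact permutation p = 0.0571). Leaving out the library that overlapped set the groups apart, so the P-values of that fit are no support.

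Among the listed genes with the highest mean totals were the helicase coactivator Ddx5 (1286.0 normalized counts, log2 fold change -0.00), the membrane progesterone receptor component Pgrmc1 (452.4, 0.73), the chaperone Hsp90ab1 (441.9, -0.04) and Ncoa7 (378.0, 0.13). None of these 4 had limma P under 0.05. Pgrmc1 was at 1313.3 in cannabis replicate 2.

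**Figure D5:**
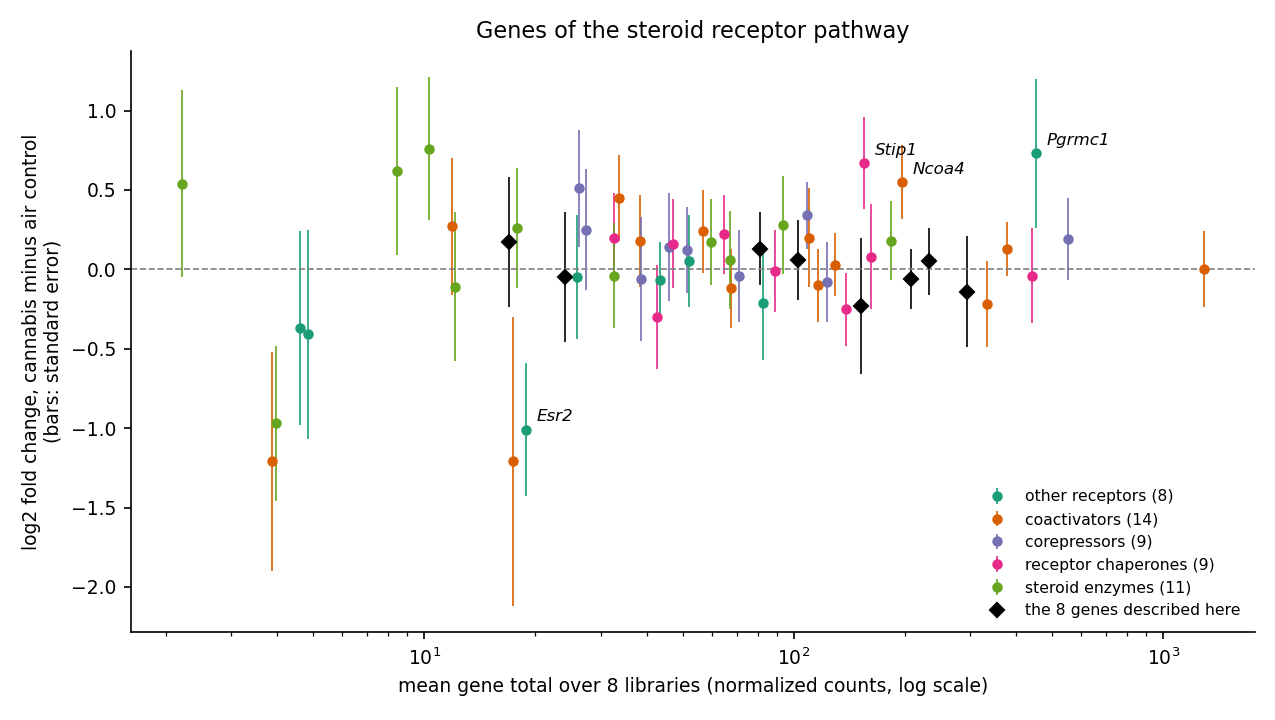
Mean gene total (horizontal axis, normalized counts, log scale) against the log2 fold change of cannabis over air control (vertical axis) for the 8 genes (black diamonds) and the 51 other pathway genes (coloured by list), with bars for the standard error. Esr2 lies lowest of the 3 genes with limma P under 0.05, at -1.01, and Stip1 and Ncoa4 lie at 0.67 and 0.55.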

How the data were processed

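WTTS-Seq libraries of hypothalamic RNA were analysed, 4 of cannabis-exposed and 4 of air-treated rats. The study's methods give 8 rats per group for this cohort and do not say which were sequenced, so 1 library is taken as 1 sample and P-values measure the spread between libraries. The authors filtered reads, trimmed leading Ts, mapped them (build Rnor_6.0), grouped nearby read ends as APA sites and kept those with 16 reads or more. The authors deposited, per site, a signal value that is the read count over that library's DESeq2 size factor (normalized counts). Dividing by the smallest step gave back whole reads for 100% of values (within 0.01 reads), and with edgeR's quasi-likelihood test on them 517 sites and 54 gene totals had P under 0.01.

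Files were joined by row order, and 34.61% of rows without a gene symbol stayed out of totals and shares. Sites and totals were tested on log2(normalized count + 1), and shares on log2 of (site + 1) over (other sites of the gene + 1). The fits used limma 3.58.1 (R 4.3.3, lmFit, eBayes with trend) without covariates. Benjamini-Hochberg adjustment was over all sites, all symbols, or for shares all sites of symbols with more than 1 site. Totals, sites and shares of the 8 genes and the other pathway totals also had a two-sided exact permutation test. It set 4 against 4 libraries (70 splits, smallest p 0.0286), or the libraries kept where some were left out. Thresholds were 0.01 for P and 0.1 for adjusted P, with 0.05 as an alternative. The fits were tested on simulated reads. Intervals and the limit of 3 reads cover counting and the fitted spread only.

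The 8 genes and all lists were chosen with earlier results of these data known. Sites named singly were each gene's leading site, those with limma P under 0.05 in the site or share fit, and those with groups apart and a mean of at least 10 (none). Other sites named were chosen after their values were seen. Other pathway genes were named if their P was under 0.05 or they were among the 5 with the highest total, of which 1 is not reported here. Alternatives were edgeR 4.0.16 and DESeq2 1.42.0 on the recovered reads, a pseudocount of 0.5 or 5, only features whose mean was 10 or more, other scalings, the replicate number as a block and leaving out each library. Leaving out air control replicate 4 and cannabis replicate 1 together was chosen after seeing the data. Hsp90aa1, Hsd11b2 and Cyp11a1 were listed and not analysed here. Python 3.11.15 was used for the other steps.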

Additional observations from a re-analysis of the deposited data

Results flagged for a closer look

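In 8 of the 56 groups of 4 libraries checked (the totals and the sites with a mean of at least 10, in each exposure group), 1 library lay far from the other 3 by Dixon's test, where chance gives about 1 in 20 groups of normal values. Over all groups with a mean of at least 10 it was 7.56% for sites and 6.53% for totals. The 56 groups are not independent, since a total contains its sites (343.6 of the 436.9 of Ncoa2 came from site 2). Air control replicate 4 was that library 4 times. It had 55.6 normalized counts of Nr3c2 in total (83.9 to 86.3 in the other air controls), 436.9 of Ncoa2 (77.9 to 126.9), 57.6 at Nr3c1 site 6 (7.18 to 13.4) and 343.6 at Ncoa2 site 2 (0 to 35.9). Cannabis replicate 1 had 150.3 of Esr1 in total (88.3 to 92.9 in the other cannabis libraries) and 17.4 at Ncor1 site 5 (9.22 to 9.96). Cannabis replicate 2 had 50.5 at Nr3c1 site 3 (4.92 to 9.93), and air control replicate 2 had 31.1 at Nr3c2 site 1 (10.2 to 13.4). Air control replicate 4 had the fewest reads of the 8 libraries, and the part of depth in these values was not tested.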

How the results depend on the processing

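Fold changes and ratios here are log2 of cannabis over air control. No gene total of the 8 had limma P under 0.05 under any alternative. Same-numbered air and cannabis libraries did not deviate together (r = -0.230, 0.080 and -0.003), so the numbers were not taken as pairs. Air control replicate 4 and cannabis replicate 5 had no same-numbered library in the other group. In the fit with the replicate number as a block they therefore added nothing to the fold changes. With the replicate block, the totals that changed sign were 0.01 (Nr3c1), -0.02 (Nr3c2), -0.20 (Pgr), 0.29 (Ncoa2) and 0.08 (Ncor1), while Esr1 was 0.25 and Hsd11b1 -0.45. Under it site 1 was 0.03 (Nr3c1), -0.01 (Nr3c2) and 0.20 (Ncor1), and the ratio of site 1 to the other sites was 0.19 (Ncoa1) and -0.81 (Hsd11b1). The block moved the calls at P under 0.01 from 375 to 229 sites, 50 to 24 totals and 267 to 147 shares, and called 0 of the 8 genes or their sites. At P under 0.05 it called 0 of the 51 other pathway genes and 2 of the 92 sites, neither of them among the 3 of limma. Over the whole table it called 243 of 18003 totals and 1887 of 98356 sites at that threshold. Ncoa2 was -0.64 in total with edgeR and -0.59 with DESeq2, against -0.23. Ncoa1 was -0.03 in total with edgeR and -0.02 at site 1 with DESeq2, and its site 1 ratio was 0.09 over sites with a mean of at least 10. The Hsd11b1 site 1 ratio was -0.06 with a pseudocount of 5. Without air control replicate 4 and cannabis replicate 1, totals were -0.05 (Pgr) and 0.24 (Ncoa2), Nr3c2 site 1 was -0.05, the site 1 ratios were -0.14 (Nr3c1) and -0.06 (Ncor1), and 1 other pathway gene, Ncoa4, was called. At P under 0.05, calls went from 0 to 3 sites, from 0 to 3 shares and from 0 to 3 other pathway genes. The cause was not tested.

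Leaving out 1 library at a time, totals ran from -0.13 to -0.01 (Nr3c1), -0.02 to 0.19 (Nr3c2), -0.12 to 0.21 (Esr1), -0.11 to 0.42 (Pgr), -0.11 to 0.13 (Ncoa1), -0.51 to 0.31 (Ncoa2), -0.42 to 0.14 (Ncor1) and -0.43 to 0.16 (Hsd11b1). Site 1 ran from -0.13 to 0.09 (Nr3c1), -0.04 to 0.47 (Nr3c2), -0.58 to 0.12 (Pgr), -0.24 to 0.18 (Ncoa1), -0.61 to 0.30 (Ncor1) and -0.58 to 0.22 (Hsd11b1). The ratio of site 1 ran from -0.14 to 0.16 (Nr3c1), -0.31 to 0.36 (Nr3c2), -0.27 to 0.16 (Ncoa1), -0.39 to 0.34 (Ncor1) and -0.56 to 0.74 (Hsd11b1). Calls ran from 0 to 2 sites (Nr3c1 sites 3 and 10 without cannabis replicate 2), 0 to 1 shares (Nr3c2 site 13 without air control replicate 2, ratio -2.27) and 0 to 1 other pathway genes, with 0 totals throughout. Each time, the groups overlapped only through the library left out, so these calls are no support. Over the whole table calls ran from 227 to 617 sites, 30 to 90 totals and 175 to 414 shares. A mean of at least 10 left 44 sites, 29 totals and 45 shares called, a pseudocount of 5 left 170 shares, and shares over sites with that mean alone left 26. Depth limits sites under about 10 normalized counts, 72 of the 92.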

Other observations

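The genes whose totals varied most like those of 3 of the receptors over the 8 libraries are given as a description, among 6103 genes (6104 for Pgr) with a mean total of at least 50. They share the libraries and their depth with the receptors. For Nr3c1 these were Tulp4 (Pearson r = 0.937), Psmd2 (0.916) and Zfp786 (0.895). For Esr1 they were Atp6ap1 (0.994), Acd (0.981) and Ehd1 (0.981), and Esr1 was highest in air control replicate 4 and cannabis replicate 1. For Pgr, at 4 to 41 reads a library, they were Rnf146 (0.980), Dph3 (0.968) and Flrt2 (0.967).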
